A study of Rattus norvegicus with 4 samples.

Results

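Metabotropic glutamate receptors are the glutamate receptors that act through G proteins, and 7 of their genes, Grm2 to Grm8, were sought on a rat whole-genome oligo array hybridized with hippocampal RNA. A probe was taken as a receptor probe if its accession on the array resolved to one of these symbols in the RefSeq gene table. Grm4, Grm5, Grm6, Grm7 and Grm8 had 1 probe each, 5 of the 41012 probes and 5 of the 8899 genes that could be named. No probe resolved to Grm2 or Grm3, which were not analysed here.

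The RNA came from male Wistar rats that were 10 weeks old at the start and housed singly for 4 weeks as sedentary controls (Sed, 10 rats), with free access to an unloaded running wheel (WR, 8 rats) or with a wheel whose resistance was 4.5 g in the first week and then rose to 30% of body weight (RWR, 8 rats). No transgene or drug is named for any group, and by the amounts of RNA in the methods each pool held 3 replicates; which rats these were is not given in the sources used here. Pooled RNA of WR and Sed was compared on chips 1 and 2, and pooled RNA of RWR and Sed on chips 3 and 4. Each chip carried 2 dyes, with the running group in Cy5 on chips 1 and 3 and in Cy3 on chips 2 and 4. The chips of a pair held the same pools, so that each comparison had 1 biological replicate, no test between conditions was possible, and the spread between rats is unknown.

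Glutamate is the main excitatory transmitter of the hippocampus, and the metabotropic receptors tune its action more slowly than the ion channel receptors do. Group I receptors, among them Grm5, couple to phospholipase C and calcium release and lie mostly on the postsynaptic side. Group II receptors (Grm2, Grm3) and group III receptors (Grm4, Grm6, Grm7, Grm8) lower cyclic AMP through inhibitory G proteins and, at many synapses, sit on the terminal and restrain transmitter release. Grm6 is best known from the retina, where it serves ON bipolar cells.

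None of the receptors passed the selection used here in either running group, which asked each chip of a pair for a ratio above 1.5-fold or below 0.75-fold and for a deposited p-value under 0.01. The count was 0 of 5 in WR, where 0.0317% of all probes passed, and 0 of 5 in RWR, where 0.0585% passed. By fold alone on both chips, 0 of 5 passed in each comparison, against 0.549% of all probes in WR and 1.48% in RWR. With so few probes called on the whole array, a count of 0 among 5 is no result about the receptors. Grm8 lay below Sed on all 4 chips, Grm5 lay above Sed on all 4 chips, and in the deposited ratios Grm4, Grm6 and Grm7 changed direction when the dyes were swapped.

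In Cy3 and in Cy5, all 5 probes were well above background on all 4 chips, and none was saturated. The signals below are processed intensities, which are not comparable between probes. The lowest processed signal of any probe well above background was between 9.43 and 21.3 in the Sed channels and between 12.8 and 18.4 in the running channels. The smallest receptor signal was 55.9, that of Grm6 in RWR on chip 4, below the median Cy3 signal of 69.3 over all noncontrol spots of that chip. In this bulk tissue, fewer cells of a type and less RNA per cell cannot be told apart.

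**Figure D1:**
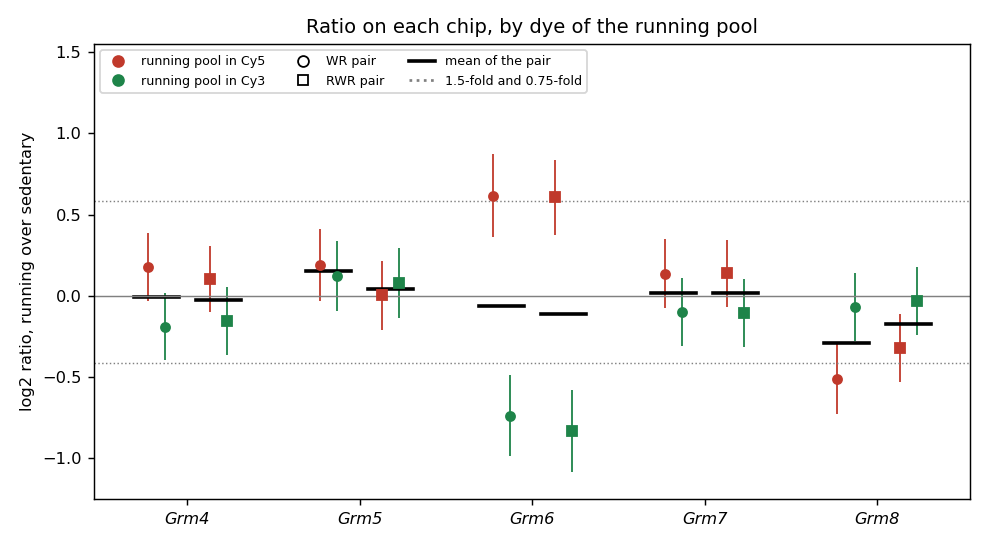
The log2 ratio of running over Sed (y axis) is drawn for each receptor on each chip, in red with running in Cy5 and in green with running in Cy3, as circles for WR and squares for RWR, with black lines at the mean of each pair, dotted lines at the fold cutoffs and bars for the error that the scanner software's error model gave a single spot. Grm8 lies below 0 and Grm5 above 0 on all 4 chips, whereas Grm4, Grm6 and Grm7 lie above 0 on chips 1 and 3 and below 0 on chips 2 and 4.

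Grm8, a presynaptic group III receptor, had the lowest mean deposited ratio of the 5 receptors in both running groups, although on chips 2 and 4 the ratios of Grm4, Grm6 and Grm7 lay lower. Its processed signal on chip 1 was 166 in WR and 237 in Sed, and on chip 2 it was 189 in WR and 198 in Sed. On chip 3 it was 198 in RWR and 247 in Sed, and on chip 4 it was 187 in RWR and 192 in Sed. The running pool thus gave the lower signal each time, by much more on the chips with running in Cy5.

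The log2 ratio of Grm8 in WR over Sed was -0.51 on chip 1 and -0.07 on chip 2, with a mean of -0.29, or 0.819-fold. In RWR it was -0.32 on chip 3 and -0.03 on chip 4, with a mean of -0.18, or 0.885-fold. The SD of the 2 chips was 0.31 in WR and 0.20 in RWR, larger than the mean in each pair. On chip 1 alone the fold of 0.702 passed the lower cutoff with a deposited p-value of 0.0189, which missed the limit of 0.01, and no other chip passed either criterion.

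Grm8 was the 1 receptor of 5 that was lower on both chips of a pair, in WR and again in RWR. Among all probes well above background, 13.8% were lower on both chips in WR and 15.4% in RWR, so that 1 of 5 is near the background. A mean as far from 0 as that of Grm8 was seen at 1.79% of probes well above background in WR and at 10.3% in RWR. The Sed pool is shared by the WR and RWR comparisons, so the values of Grm8 in the latter are not an independent repeat of those in the former.

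The size of the Grm8 difference was smaller when the spot signals were processed anew, while its direction was the same. The alternatives called normexp and no background correction each also replaced the deposited dye normalization by loess, so that the part of background and that of dye normalization cannot be told apart. With normexp background correction and loess, the log2 ratio in WR was -0.18 on chip 1 and -0.15 on chip 2, with a mean of -0.16. In RWR the same setting gave -0.18 on chip 3 and -0.06 on chip 4, with a mean of -0.12. The chips of a pair lay closer together than in the deposited ratios, and the mean in WR was smaller by over 1.5 times. Under all 8 settings with both chips, the main one included, Grm8 was below Sed on both chips of each pair. Most of these could hardly change its value, since its probe had 1 spot per chip. Only normexp and no background correction gave clearly different ratios, and the others returned the deposited ratios or values close to them.

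**Figure D2:**
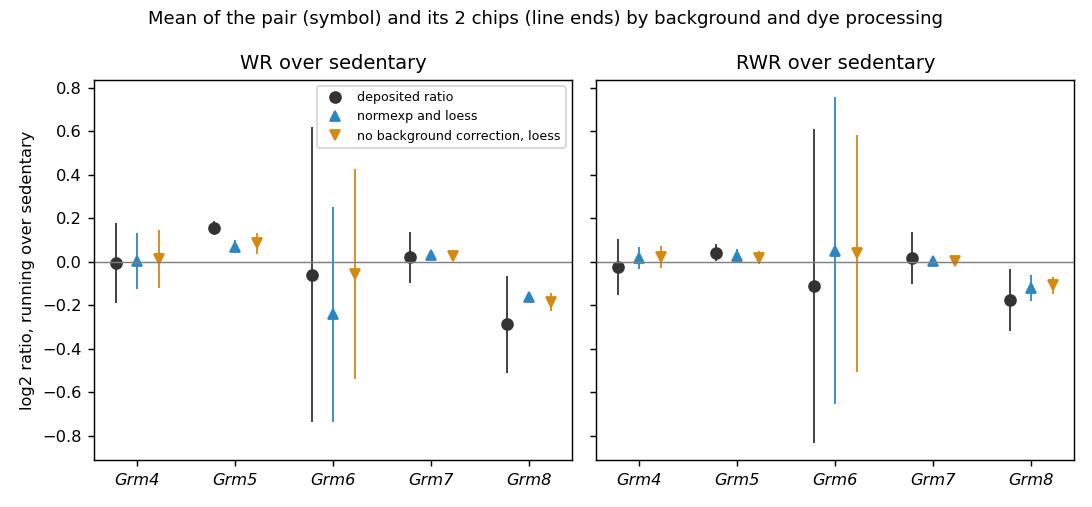
The log2 ratio of running over Sed (y axis) of each receptor is drawn in the deposited ratios, under normexp with loess and under no background correction with loess, with a symbol at the mean of each pair and a line that ends at the values of its chips. The Grm8 mean in WR is -0.29, -0.16 and -0.19 in that order, and the Grm5 mean in WR is 0.15, 0.07 and 0.08.

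Grm5, the group I receptor that drives phospholipase C in hippocampal pyramidal cells, was the only receptor printed at 10 spots, and it gave the highest mean deposited ratio of the 5 in both running groups. Its mean processed signal was 147 in WR and 129 in Sed on chip 1, and 131 in WR and 121 in Sed on chip 2. It was 143 in each of RWR and Sed on chip 3, where 9 spots were used because 1 carried an outlier flag, and 127 in RWR and 120 in Sed on chip 4. The WR pool gave the higher signal on both of its chips, whereas RWR and Sed could hardly be separated on chip 3.

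The log2 ratio of Grm5 in WR over Sed was 0.19 on chip 1 and 0.12 on chip 2, with a mean of 0.15, or 1.11-fold, and an SD of the 2 chips of 0.047. In RWR over Sed it was 0.0021 on chip 3 and 0.079 on chip 4, with a mean of 0.041, or 1.03-fold, and an SD of 0.055. The mean exceeded the SD of the chips in WR and did not in RWR. Grm5 was the 1 receptor of 5 that was higher on both chips, where 14.4% of probes well above background were higher on both in WR and 16.6% in RWR. A mean at least as far from 0 was seen at 10.96% of those probes in WR and at 63.4% in RWR.

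The repeated spots give the technical spread of Grm5 within a chip. All 10 spots were above 0 on chip 1, between 0.04 and 0.30 on the log2 scale, and all 10 were above 0 on chip 2, between 0.05 and 0.17. On chip 3, 5 of 9 spots were above 0, with a range of -0.10 to 0.13, and on chip 4, 7 of 10 were above 0, with a range of -0.04 to 0.20. The spots thus lay on one side of 0 in WR and on both sides in RWR. Spots of a chip share 1 hybridization and are not replicates of a condition.

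Averaging each spot position over the chips of a pair gave a log2 ratio of 0.10 to 0.20 in WR, with a median of 0.15 over 10 positions, and of -0.07 to 0.11 in RWR, with a median of 0.04 over 9 positions. All 10 positions were above 0 in WR, and 6 of 9 were above 0 in RWR. In the deposited ratios the WR value was the higher at 9 of 9 positions measured in both. These positions share the same pools and chips, so the count adds no separate comparisons to the chip values. The SD over the spots of Grm5 was 0.081, 0.041, 0.074 and 0.094 on chips 1 to 4, against a median of 0.048, 0.049, 0.045 and 0.046 over the 263 probes with 10 spots. The Grm5 spots were therefore more scattered than is usual on chips 1, 3 and 4.

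**Figure D3:**
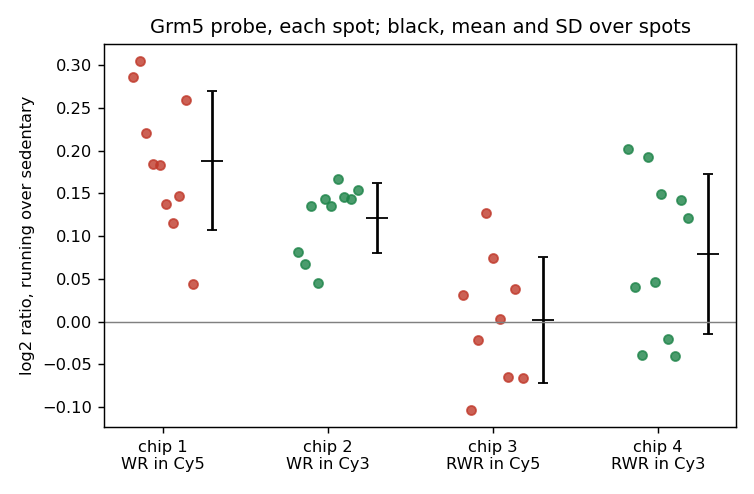
Each point is the log2 ratio of running over Sed (y axis) at one Grm5 spot on one chip, in red with running in Cy5 and in green with running in Cy3, and the black bar beside them gives the mean and SD over the spots used. The 10 spots of chip 1 and the 10 of chip 2 lie above 0, while chips 3 and 4 have spots on both sides of 0.

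The Grm5 difference in WR was also smaller when the spot signals were processed anew, at a log2 ratio of 0.07 with normexp and 0.08 with no background correction, and kept its sign on both chips under all 8 settings. In RWR it was above Sed on both chips under 5 of 8 settings. The chips took opposite signs under the other 3, which were normexp, no background correction and the flagged spot kept. With the flagged spot of chip 3 kept, the Grm5 ratio on that chip became -0.03. Median centring, the series matrix values and the ratio of processed signals gave nearly the deposited Grm5 values again, so they add little to these counts.

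Grm6 had the largest disagreement between the dyes of any receptor, and the reading of this gene turned on which chip was taken. Its processed signal on chip 1 was 92.2 in WR and 60.1 in Sed, and on chip 2 it was 56.0 in WR and 93.4 in Sed. On chip 3 it was 111 in RWR and 72.7 in Sed, and on chip 4 it was 55.9 in RWR and 99.5 in Sed. On every chip the pool in Cy5 gave the higher signal, whichever pool that was. The Grm6 signal in Cy3 was low on every chip, below the median Cy3 signal of all noncontrol spots. That median was 66.7, 62.2, 74.6 and 69.3 on chips 1 to 4. In Cy5 the Grm6 signal lay above the median, which was 71.3, 66.4, 78.3 and 71.9.

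The log2 ratio of Grm6 in WR over Sed was 0.62 on chip 1 and -0.74 on chip 2, with a mean of -0.06, or 0.959-fold. In RWR over Sed it was 0.61 on chip 3 and -0.83 on chip 4, with a mean of -0.11, or 0.925-fold. With normexp the mean became -0.24 in WR and 0.05 in RWR. The SD of the 2 chips was 0.96 in WR and 1.02 in RWR, larger than any of these means. Its deposited p-value was 0.0157, 0.0029, 0.0084 and 0.00095 on chips 1 to 4, so that chip 3 at 1.52-fold, chip 4 at 0.561-fold and also chip 2 each passed the p limit and a fold cutoff, chip 3 upward and the others downward. A single chip would have called Grm6 higher or lower in RWR, and the pair called neither.

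The distance of the chips from the mean of their pair, here called the swap distance, was 0.68 on the log2 scale for Grm6 in WR and 0.72 in RWR. A swap distance at least this large was seen at 2.35% of probes well above background in WR and at 1.99% in RWR. The median swap distance of those probes was 0.11 in WR and 0.10 in RWR. A dye difference was general on these chips, with a Pearson's r of -0.68 in WR and -0.63 in RWR between the turned ratios of the chips of a pair across probes well above background, which are not independent replicates.

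**Figure D4:**
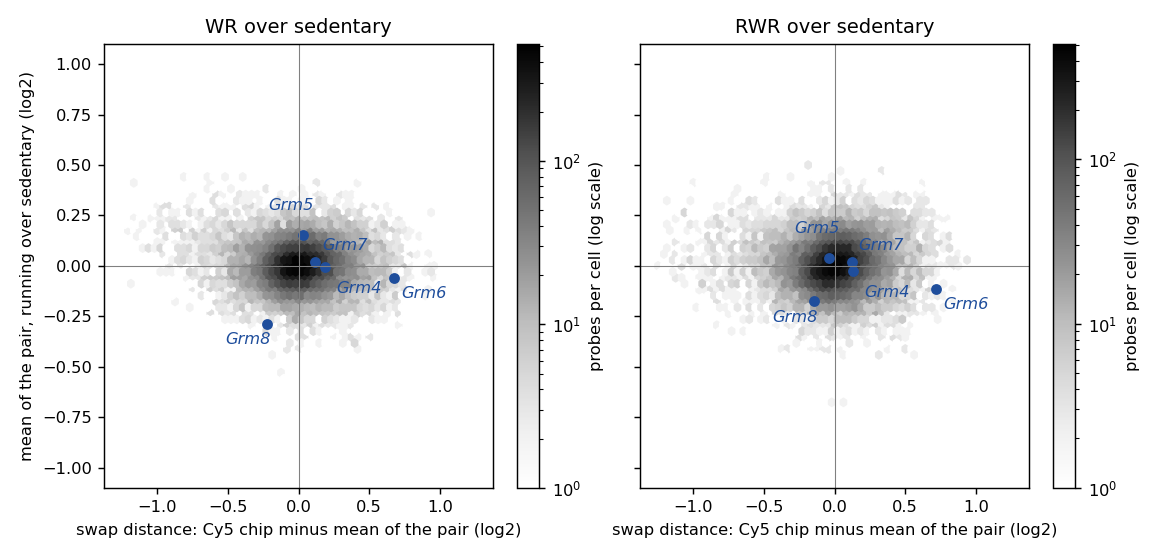
The mean log2 ratio of each pair (y axis) is set against its swap distance, the chip with running in Cy5 minus the mean (x axis, log2), for probes well above background in grey and the 5 receptors in blue; 44 probes in WR and 52 in RWR lie beyond the axes. Grm6 is far to the right at 0.68 and 0.72 with a mean near 0, and Grm8 in WR lies at the lower edge of the cloud.

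Grm4, a presynaptic group III receptor, gave processed signals of 305 in WR and 270 in Sed on chip 1, and of 250 in WR and 286 in Sed on chip 2. On chip 3 it gave 307 in RWR and 286 in Sed, and on chip 4 it gave 248 in RWR and 276 in Sed. As for Grm6, the pool in Cy5 was the higher on every chip, but by less. The log2 ratio was 0.18 and -0.19 on the chips of WR, with a mean of -0.0063 or 0.996-fold, and 0.10 and -0.15 on the chips of RWR, with a mean of -0.026 or 0.982-fold. The swap distance was 0.18 in WR and 0.13 in RWR, far larger than the mean in each.

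Grm7, the group III receptor found at the release sites of many hippocampal terminals, gave processed signals of 206 in WR and 187 in Sed on chip 1, and of 161 in WR and 172 in Sed on chip 2. On chip 3 it gave 214 in RWR and 194 in Sed, and on chip 4 it gave 157 in RWR and 169 in Sed. The pool in Cy5 was again the higher on every chip. The log2 ratio was 0.14 and -0.10 on the chips of each pair, with a mean of 0.019 in WR and 0.017 in RWR, both 1.01-fold. The swap distance of 0.12 in each pair was close to the median of all probes well above background. With normexp the swap distance fell to 0.0044 in WR and 0.023 in RWR, and the WR chips then had the same sign, at 0.03 and 0.02. With no background correction they were 0.04 and 0.0088, also both above Sed, while the RWR chips stayed opposite under both settings.

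**Figure D5:**
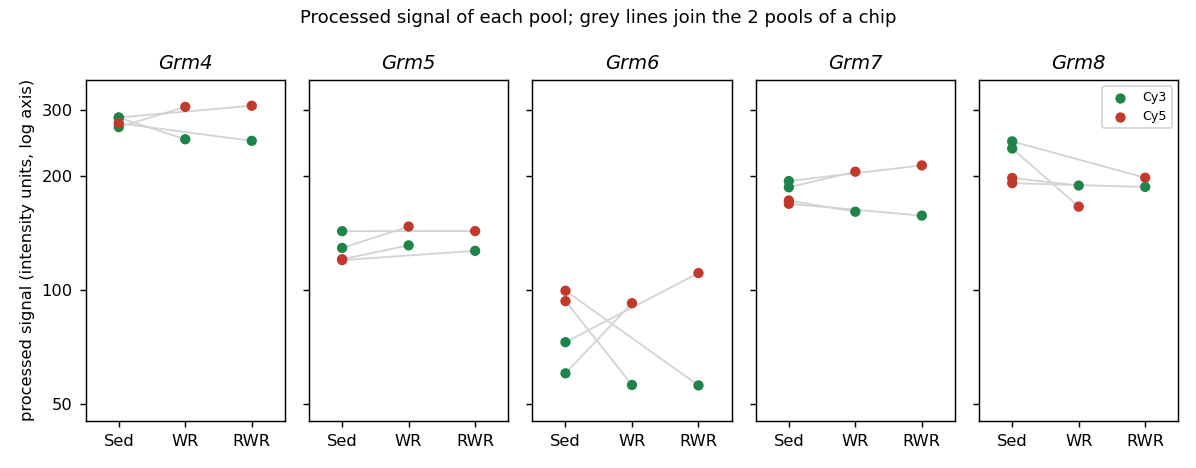
The processed signal (log axis) of each receptor probe is drawn for the pools (x axis), with Cy5 in red, Cy3 in green and a grey line between the pools of a chip. For Grm4, Grm6 and Grm7 the pool in Cy5 is the higher on all 4 chips, for Grm8 the Sed pool is the higher on all 4, and levels are not comparable between probes.

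Over the 5 receptors, 1 was higher on both chips, 1 was lower on both and 3 were opposite in the deposited ratios, in WR and in RWR. With normexp or without background correction, 2 were higher, 1 was lower and 2 were opposite in WR, and 0 were higher, 1 was lower and 4 were opposite in RWR. The median log2 ratio of the receptors was -0.0063 in WR and -0.026 in RWR, against 0.0016 and -0.0047 for all 8899 named genes. In the order of mean deposited ratio, the lowest was Grm8, followed by Grm6, Grm4, Grm7 and Grm5, in both comparisons. In neither comparison was a gap between neighbours in this order larger than the SD of the chips of the more variable neighbour. That SD also holds the dye difference, which the mean of a swapped pair averages out, so it cannot decide whether neighbours differ. With 1 pool per group, the order has no error across rats. The place of Grm6 in the order changed when the spot signals were processed anew, to the lowest in WR with normexp and to the highest in RWR with normexp and without correction. In RWR, Grm4 also came above Grm7, at 0.017 against 0.0044 with normexp and at 0.022 against 0.0037 without correction. Without correction it came above Grm5 as well, which was at 0.018.

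The difference between resistance running and unloaded running, taken as the RWR mean minus the WR mean of the log2 ratios, was -0.11 for Grm5 and 0.11 for Grm8. For Grm5 it was -0.19 between the chips with running in Cy5 and -0.04 between those with running in Cy3. For Grm8 it was 0.19 and 0.03 in the same order. In these deposited ratios RWR lay nearer to Sed than WR did with both dye orientations, and the size was larger between the Cy5 chips. With normexp and without background correction the difference shrank to -0.04 and -0.07 for Grm5 and to 0.04 and 0.08 for Grm8. RWR was then no longer nearer to Sed on every chip, since Grm5 on the Cy3 chips was 0.06 in RWR and 0.04 in WR with normexp and 0.05 and 0.04 without correction, and Grm8 on the Cy5 chips was -0.18 in each with normexp. In the deposited ratios it was -0.05 for Grm6, -0.02 for Grm4 and -0.0022 for Grm7. Those of Grm6 and Grm4 turned sign under the same alternatives, to 0.29 and 0.10 for Grm6 and to 0.02 and 0.01 for Grm4. Since each group was a single pool, none of these differences has an error across rats.

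Genes that work with the receptors were described from 4 lists of 96 symbols, of which 80 had a named probe, 103 probes in all. No probe of any list was called in either direction in WR or RWR, and 1 was past the fold cutoffs alone in each. At the shares of all probes given above for these rules (0.0317% and 0.0585% called, 0.549% and 1.48% by fold alone), such counts are near the background. The median log2 ratio over the 80 genes was 0.01 in WR and -0.0021 in RWR, close to that of all named genes. The probe past the fold alone belonged to Trpm1, the channel that Grm6 controls in ON bipolar cells, and was higher in WR and lower in RWR. That probe, singled out after its values were seen, did not rise well above background in either dye on any chip, and no fold is given for it. The other Trpm1 probe had opposite signs on the WR chips and log2 ratios of -0.13 and -0.55 on the RWR chips, and of all chips only chip 3 had it well above background in both dyes.

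Of the genes of group I coupling and scaffolds, 25 of 27 had a probe, and the median log2 ratio was 0.02 for WR and -0.0078 for RWR. Arc, the immediate early gene whose translation follows group I receptor activation, had 0.30 and 0.12 on the chips of RWR, a mean of 0.21, and 0.23 and -0.03 on the chips of WR, a mean of 0.10. Ncdn, which encodes neurochondrin, had -0.24 and -0.14 on the chips of RWR, a mean of -0.19, and Caln1, a calcium binding protein, had a mean of -0.13. None of these 3 genes passed the cutoffs.

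Of the genes of group II and III coupling, 21 of 23 had a probe, and the median log2 ratio was 0.02 for WR and 0.02 for RWR. Kcnj6, a potassium channel subunit opened by G protein beta and gamma subunits, had a mean of 0.18 in each of WR and RWR. Gnao1, the G protein alpha o subunit, had a mean of 0.13 in each. Rgs4, which shortens G protein signals, had a mean of -0.21 in WR and -0.15 in RWR. The same sign on both RWR chips was a condition for naming a gene here, and none of these 3 genes passed the cutoffs.

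Of the receptor partners and desensitization genes, 16 of 23 had a probe, and the median log2 ratio was 0.03 for WR and 0.0061 for RWR. In RWR the scaffold gene Grip1 had a mean of 0.10 and Cyth2, an exchange factor for ARF proteins, a mean of 0.09, whereas Nsf, the fusion ATPase, and Pick1, a scaffold that binds Grm7, each had a mean of -0.14. Of the genes of glutamate supply, uptake and NAAG, 18 of 23 had a probe, with a median of -0.0057 in WR and -0.03 in RWR. In RWR, Slc38a2, a carrier of neutral amino acids such as glutamine, had a mean of -0.07 and Folh1, which splits the peptide transmitter NAAG, a mean of -0.03. None of these genes was called.

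On single chips the medians of the 4 lists ran from -0.07 to 0.06 in WR and from -0.08 to 0.07 in RWR. Leaving out 1 chip turned the sign of 2 of the 4 medians in WR, those of group I coupling and of glutamate supply, and of all 4 in RWR. With both chips used, the group I median in RWR turned to 0.01 with normexp and 0.02 without background correction. The median of receptor partners turned to -0.0043 in RWR with normexp and to -0.0026 in WR without background correction.

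The 3 genes whose 4 log2 ratios were most like those of Grm8, by Euclidean distance over the 4 chips among 5926 named genes well above background, were Psmb9 at a distance of 0.170, Syngr1 at 0.174 and Mlnr at 0.175. The mean ratio was -0.31 in WR and -0.09 in RWR for Psmb9, -0.19 and -0.11 for Syngr1, and -0.20 and -0.10 for Mlnr. Unlike Grm8, these genes were not below Sed on every chip, with ratios of 0.03 and 0.04 on chips 2 and 4 for Syngr1, 0.02 and 0.02 for Mlnr, and 0.03 on chip 4 for Psmb9.

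Marker genes of cell types and tissues were described as well. In the Sed channels, 67.5% to 82.5% of all noncontrol spots of a chip were well above background. Counts of markers well above background therefore cannot tell tissues apart or check the tissue label. All 7 hippocampal neuron markers with a probe were well above background in Sed on all 4 chips, and the median log2 ratio was 0.07 for WR and 0.04 for RWR. The 3 markers each of astrocytes, oligodendrocytes and microglia were also well above background, and those of oligodendrocytes lay between -0.07 and -0.06 in WR and between -0.24 and -0.08 in RWR. Markers of choroid plexus and pituitary were also looked at, and their signals do not show that such tissue was in the samples. Of choroid plexus markers, 2 of 5 were well above background in Sed on all chips and 1 was below it on all, with log2 ratios of -0.86 to 0.43 in WR and 0.06 to 0.59 in RWR. All 4 pituitary markers were well above background, with log2 ratios of -0.98 to 0.02 in WR and -1.20 to 0.06 in RWR. Of these, 1 choroid plexus marker in WR and 1 pituitary marker in RWR were called, among 13 probes called in WR and 24 in RWR on the whole array. The part of these tissues and cell types in the receptor values was not tested.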

How the data were processed

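The authors pooled hippocampal RNA within each group (Sed, WR and RWR), labelled the pools with Cy3 or Cy5 and hybridized 4 arrays with the dyes swapped within each pair. They processed the scans with Agilent Feature Extraction 11.0.1.1, which subtracted background and normalized the dyes. Each spot then has a deposited intensity per dye, called its processed signal. Ratios were deposited as log10 of Cy5 over Cy3, and the deposited p-value comes from the software's error model for a single chip, so that it says nothing of the spread between rats. The authors' series matrix gives log10 of the same ratio, computed from the processed signals. Precision is limited by the number of arrays.

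Control spots and those with outlier flags were removed. Every ratio was put on the log2 scale as running over Sed, and a probe's value is the mean over its spots. The chips held 43379 noncontrol spots. Accessions, with their version dropped, were looked up in the RefSeq table of a later assembly than that of the array design, used for names only, so that no coordinates are given; 10768 probes were named. A gene with several probes was represented in lists by the brightest. All receptor probes were described whatever their values. From each pathway list, called genes were to be named, with up to 2 genes of highest and 2 of lowest RWR mean among those well above background on all chips and of 1 sign on both chips; 1 gene that this rule names is not reported here. For likeness, the 3 nearest genes to the receptor with the mean log2 ratio farthest from 0 were named. The receptors, lists and marker genes were chosen with earlier results of these data known.

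Alternatives were normexp (offset 50) or no background correction, each with loess in limma 3.58.1 (R 4.3.3), median centring, the series matrix values, the ratio of processed signals, flagged spots kept, the median over spots, other call cutoffs, and each chip left out. Other steps ran in Python 3.11.15 with pandas 2.3.3. The averaging of a pair and the fold selection without the p limit were tested on simulated pairs, with changes larger than any receptor mean. The other steps were not tested in this way.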

Additional observations from a re-analysis of the deposited data

Results flagged for a closer look

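Folh1, the enzyme that splits NAAG, had log2 ratios above 0 on both WR chips, at 0.00094 and 0.07. On both RWR chips its ratios were below 0, at -0.02 and -0.05. No other gene given here with values changed sides in this way, except at the Trpm1 probe past the fold alone. That probe was not well above background. For Folh1, the RWR mean minus the WR mean was -0.067, from 0.03 in WR and -0.03 in RWR. Both means were smaller in size than the median of probes well above background (0.052 in WR and 0.059 in RWR). This difference was not tested, since each group was a single pool.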

How the results depend on the processing

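The count of receptors called stayed at 0 in WR and in RWR under all alternatives that used both chips of a pair. Leaving out 1 chip, which makes the call on the other chip alone, gave 0 to 1 in WR and 1 to 1 in RWR. The receptor called was Grm6 each time, lower on chip 2 alone in WR, lower on chip 4 alone in RWR and higher on chip 3 alone in RWR, and 3.92% to 7.81% of all probes were called on a single chip. The cause was not tested. A receptor value was taken as moved if it shifted by more than the SD of its 2 chips or, for RWR minus WR, of its 2 same-dye differences. With both chips of a pair used, the alternatives that moved single receptors were normexp and no background correction. Each also put loess in place of the deposited dye normalization. In that order they gave a Grm5 ratio in WR of 0.07 and 0.08, an RWR minus WR difference of 0.29 and 0.10 for Grm6 (against -0.05) and of -0.02 and -0.02 for Grm7 (against -0.0022). The means of Grm4 in both comparisons and of Grm6 in RWR changed sign under them, within the SD of their chips. That SD holds the dye difference, so some larger shifts were not counted as moved. With normexp in WR, Grm8 went from -0.29 to -0.16 and Grm6 from -0.06 to -0.24. Leaving out 1 chip also unbalances the dyes of an RWR minus WR difference. That of Grm8 turned from 0.11 to -0.11 without chip 1 and -0.03 without chip 4. Those of Grm4, Grm6 and Grm7 turned sign as well without either of these chips, that of Grm6 to 0.62 and 0.67. Only that of Grm5 kept its sign whichever chip was left out. The median over the 5 receptors under normexp and without background correction became 0.0018 and 0.011 in WR and 0.017 and 0.018 in RWR. With single chips it ran from -0.10 to 0.18 in WR and from -0.10 to 0.10 in RWR. With 1 pool per group, differences of the size seen for Grm5 and Grm8 cannot be set against the spread between rats.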
